A study of Mus musculus with 27 samples.

Results

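The genes described here encode subunits of ATP-dependent chromatin remodelers, the complexes of the BAF and PBAF, CHD, ISWI and INO80 families. They were chosen by name, as a list of 42 genes, with earlier results of these data known, and no measured value served as a criterion. Of the 42 genes, 40 had at least 1 annotated probe, and 104 of the 45281 probes on the array were annotated to them. Chd7 and Baz1a were not analysed here. Probes of Dpf2, Dpf3 and Baz1b were not well above background, which left 37 measured genes among 10663 measured in all. They were 24 of 26 listed BAF and PBAF genes, 8 of 9 CHD genes and 5 of 7 ISWI and INO80 genes, and 78 of the 104 probes passed the filter on dim signals. A probe passed if its signal was above background (detection p under 0.01) in at least 5 of the 27 arrays, whichever group these belonged to.

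RNA of mouse samples, most of them labelled as cortex, was measured on 27 Illumina BeadChip arrays, 1 sample each, in 5 groups. There were 6 arrays titled E13 embryo and 5 titled E16 embryo (E, embryonic day), whose signal columns carry the letters WT. Cortex of Tbr2 conditional knockout (cKO) embryos had 5 arrays at E13 and 6 at E16, and Tbr2 (gene Eomes) is a transcription factor of the progenitors that lie between radial glia and excitatory neurons. The remaining 5 arrays held neurons of the Tbr2 lineage, sorted by green fluorescent protein (GFP) from cortex at postnatal day 2 (P2). The labels give no allele, Cre driver or promoter for any group, and no tissue for the embryo arrays. The text on the GFP sort is attached to every group, and the age field of the E16 embryo samples reads E13, so the groups follow the titles. The titles also mark the embryo arrays as a re-analysis, and the description of the E13 cKO samples repeats that of the P2 samples. Nothing states that samples came from separate animals, so the p-values measure the spread between these samples, which may be technical.

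Remodelers use the energy of ATP hydrolysis to slide, evict or exchange nucleosomes, and each family is built around its own ATPase. BAF complexes carry either Smarca4 (BRG1) or Smarca2 (BRM). In mouse neural development, progenitor BAF contains Actl6a (BAF53a), Phf10 (BAF45a) and Ss18, and BAF of postmitotic neurons contains Actl6b (BAF53b), Dpf1 or Dpf3 (BAF45b, BAF45c) and Ss18l1 (CREST), a change known as the progenitor to neuron subunit switch. Chd3, Chd4 and Chd5 are alternative ATPases of the NuRD complex, which joins remodeling to histone deacetylation. Smarca5 (SNF2H) and Smarca1 (SNF2L) are the alternative ATPases of ISWI complexes.

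Sequence upstream of 6 genes is shown because they form 3 of the pairs of alternative subunits whose signals, given below, moved apart between embryo and P2 arrays. Each run is the 250 bases before a RefSeq gene start (GRCm38.p6), 5′ to 3′ on the gene's strand. Chd4 and Chd5 had 2 starts each, and the farthest upstream is shown. Capitals mark matches, on either strand, to any of 6 motifs. These were the GC box with the letters GGGCGG, the box read by the factor NF-Y with CCAAT, an ETS core spelled CCGGAAG, the E-box written CACGTG, the TATA box as TATAAA and an E2F core given by TTCCCGC. The GC box and the E2F core can share bases.
Actl6a, chr3:32708296-32708545, plus strand: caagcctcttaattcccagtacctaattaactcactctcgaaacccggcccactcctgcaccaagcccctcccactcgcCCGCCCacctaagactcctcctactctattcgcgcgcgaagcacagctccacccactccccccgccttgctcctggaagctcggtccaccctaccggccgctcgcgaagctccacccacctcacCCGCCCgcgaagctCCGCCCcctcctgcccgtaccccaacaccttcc
Actl6b, chr5:137553296-137553545, plus strand: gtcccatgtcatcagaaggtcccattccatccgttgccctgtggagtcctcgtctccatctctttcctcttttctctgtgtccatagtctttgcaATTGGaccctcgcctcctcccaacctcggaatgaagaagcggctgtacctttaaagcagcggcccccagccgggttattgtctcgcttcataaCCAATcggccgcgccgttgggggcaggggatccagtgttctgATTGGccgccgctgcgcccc
Chd4, chr6:125095731-125095980, plus strand: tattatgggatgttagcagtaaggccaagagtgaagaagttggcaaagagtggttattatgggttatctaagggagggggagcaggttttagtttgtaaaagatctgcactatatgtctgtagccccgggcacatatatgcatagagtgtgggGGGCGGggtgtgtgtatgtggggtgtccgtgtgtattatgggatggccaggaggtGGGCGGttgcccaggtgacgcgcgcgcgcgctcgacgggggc
Chd5, chr4:152338401-152338650, plus strand: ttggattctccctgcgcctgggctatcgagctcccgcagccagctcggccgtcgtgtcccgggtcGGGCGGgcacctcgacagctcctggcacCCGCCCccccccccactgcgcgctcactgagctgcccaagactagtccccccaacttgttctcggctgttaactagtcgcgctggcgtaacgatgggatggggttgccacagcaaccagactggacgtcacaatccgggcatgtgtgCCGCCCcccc
Smarca5, chr8:80739460-80739709, minus strand: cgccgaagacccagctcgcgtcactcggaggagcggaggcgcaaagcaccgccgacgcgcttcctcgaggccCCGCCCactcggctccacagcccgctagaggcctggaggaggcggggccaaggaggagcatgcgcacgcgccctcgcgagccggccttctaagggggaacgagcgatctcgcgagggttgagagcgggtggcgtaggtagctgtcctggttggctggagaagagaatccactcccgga
Smarca1, chrX:47892614-47892863, minus strand: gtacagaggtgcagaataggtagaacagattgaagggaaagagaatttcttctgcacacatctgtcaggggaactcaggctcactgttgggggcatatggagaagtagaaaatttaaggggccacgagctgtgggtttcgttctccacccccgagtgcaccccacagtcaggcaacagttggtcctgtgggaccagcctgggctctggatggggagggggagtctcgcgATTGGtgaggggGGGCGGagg

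The run of Actl6a held 3 GC boxes and 19 CpG pairs, whereas that of Actl6b held no GC box, 3 CCAAT matches and 15 CpG pairs. Chd4 had 2 GC boxes and 12 CpG pairs, and Chd5 had 3 and 21. At their other starts, not shown, Chd4 had 23 CpG pairs and Chd5 had 22. Smarca5 had 1 GC box and 29 CpG pairs, and Smarca1 had 1 GC box, 1 CCAAT match and 6 CpG pairs. RefSeq windows matched 30 of the 37 measured genes (35 windows, against 32851 of all genes). The windows of all genes were not limited to measured genes, so the shares below do not set the members apart from other measured genes. A GC box was in 31 of the 35, or 88.6%, against 32.7% of all windows. The NF-Y box was in 20% of the members' windows against 33.8% of all, the ETS core in 11.4% against 6.91%, the E-box in 11.4% against 6.02%, the E2F core in 11.4% against 3.82%, and the TATA box in 2.86% against 12.4%. The median number of CpG pairs was 23 in the members' windows and 6 in all windows. These are matches to letters and were not tested as binding sites.

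Between 36.9% and 42.9% of probes were above background on an array, and arrays of 1 group correlated at 0.97 to 0.99. The small number of arrays in each group limits the precision. On the second principal component of the embryonic arrays the genotypes overlapped, and 4 of the 11 cKO arrays (arrays 2 and 5 at E13, arrays 2 and 3 at E16) lay within the range of the embryo arrays. Of these, E13 array 2 and E16 array 3 lay deepest in that range, and genotype comparisons are also given without these 2 and without all 4. Eomes, the gene named as deleted, was not lower in the arrays labelled cKO. It was at 11.52 ± 0.097 (SD, n = 5) in E13 cKO against 11.25 ± 0.27 (SD, n = 6) in E13 embryo and at 11.09 ± 0.46 (SD, n = 6) in E16 cKO against 10.51 ± 0.32 (SD, n = 5) in E16 embryo, and neither difference passed (0.27 and 0.59). The labels do not give the deleted part, so whether the probe lies in it is not known here, and cKO stands below for arrays labelled so. In the P2 neurons all 10 measured markers of postmitotic neurons were above background in every array. Of these, 5 passed as higher and 3 as lower against E16, and 5 and 4 against E13, and their summed signal ran from 79735 to 85359, against 59352 to 78284 in the embryo arrays. All 6 measured cell cycle genes passed as lower at P2 against both stages, with summed signals of 628 to 2530 at P2, 3724 to 4429 in E16 embryo and 7788 to 10461 in E13 embryo. All 4 measured intermediate progenitor genes were lower as well, with sums of 1835 to 2876 at P2 against 17897 to 30047 in embryo. The P2 arrays also carried markers of other cells, and every measured gene of the next 3 lists passed as higher. Many of these genes passed the filter on dim signals only through the P2 arrays. The 6 microglia genes were above background in every P2 array and summed to 2161 to 3491 against 72 to 120 in embryo arrays, where Cx3cr1, Aif1, Tyrobp, C1qa and C1qb were above background in none. The 4 measured endothelial and pericyte genes summed to 2120 to 2839 at P2 and to 33 to 54 in embryo, and the 3 measured oligodendrocyte lineage genes to 1150 to 12395 and to 224 to 359. Radial glia genes (8 measured, 3 higher and 3 lower at P2 in both comparisons) summed to 1745 to 18322 at P2 and to 2334 to 4180 in embryo, and choroid plexus genes (3 measured) to 1745 to 18800 and to 75 to 541. The part of these cells, and of fewer dividing cells, in the P2 results was not tested, and in bulk samples fewer cells of a type and less RNA per cell cannot be told apart.

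P2 neurons were compared with the embryo arrays to see how remodeler subunits differ between postnatal neurons of the lineage and the embryonic groups. With all arrays normalised together, most remodeler subunits had lower signals in the P2 neurons, led by Chd4, Smarca4 and Actl6a, while the ATPase genes Chd5 and Smarca1 were higher. Against E16 embryo, 2 of the 37 genes rose, 21 fell and 14 did not pass (limma, adjusted p under 0.05 over all 10663 genes), at a background of 72% of all genes (30.4% higher, 41.6% lower). Against E13 embryo, 5 rose, 22 fell and 10 did not pass, at a background of 73.9% (31.7% higher, 42.2% lower). The share that passed was 62.2% and 73.0%, at or below the background, and 56.8% and 59.5% were lower. The median log2 change of the members was -0.44 against E16 and -0.71 against E13, and that of all genes was -0.14 and -0.13. Both comparisons share the 5 P2 arrays.

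The P2 arrays came in a table of their own. When each table was quantile normalised separately, the median change of all genes moved to 0.66 against E16 and 0.67 against E13, and the members split into 15 higher and 8 lower against E16, at a background of 66.8% and 10.7% of all genes. Against E13 they split into 17 higher and 12 lower, at 66.9% and 12.7%. Directions at P2 are therefore relative to the other genes on the array. All 23 genes passing against E16 and all 27 against E13 lay on the same side of the all-gene median under both ways of normalising. Both ways keep the order of probes within an array, so this agreement is no independent support. No share over all genes was taken beside it. Smarca4, Smarcc1, Smarcc2, Smarce1, Actl6a, Bcl7a, Chd4 and Chd6 passed as lower against E16 by both ways of normalising, and Smarca1 and Chd5 as higher. Against E13, 12 were lower and 5 higher by both ways. Calls and signs of single genes that were lost or turned with separate normalisation are given with them below.

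**Figure D1:**
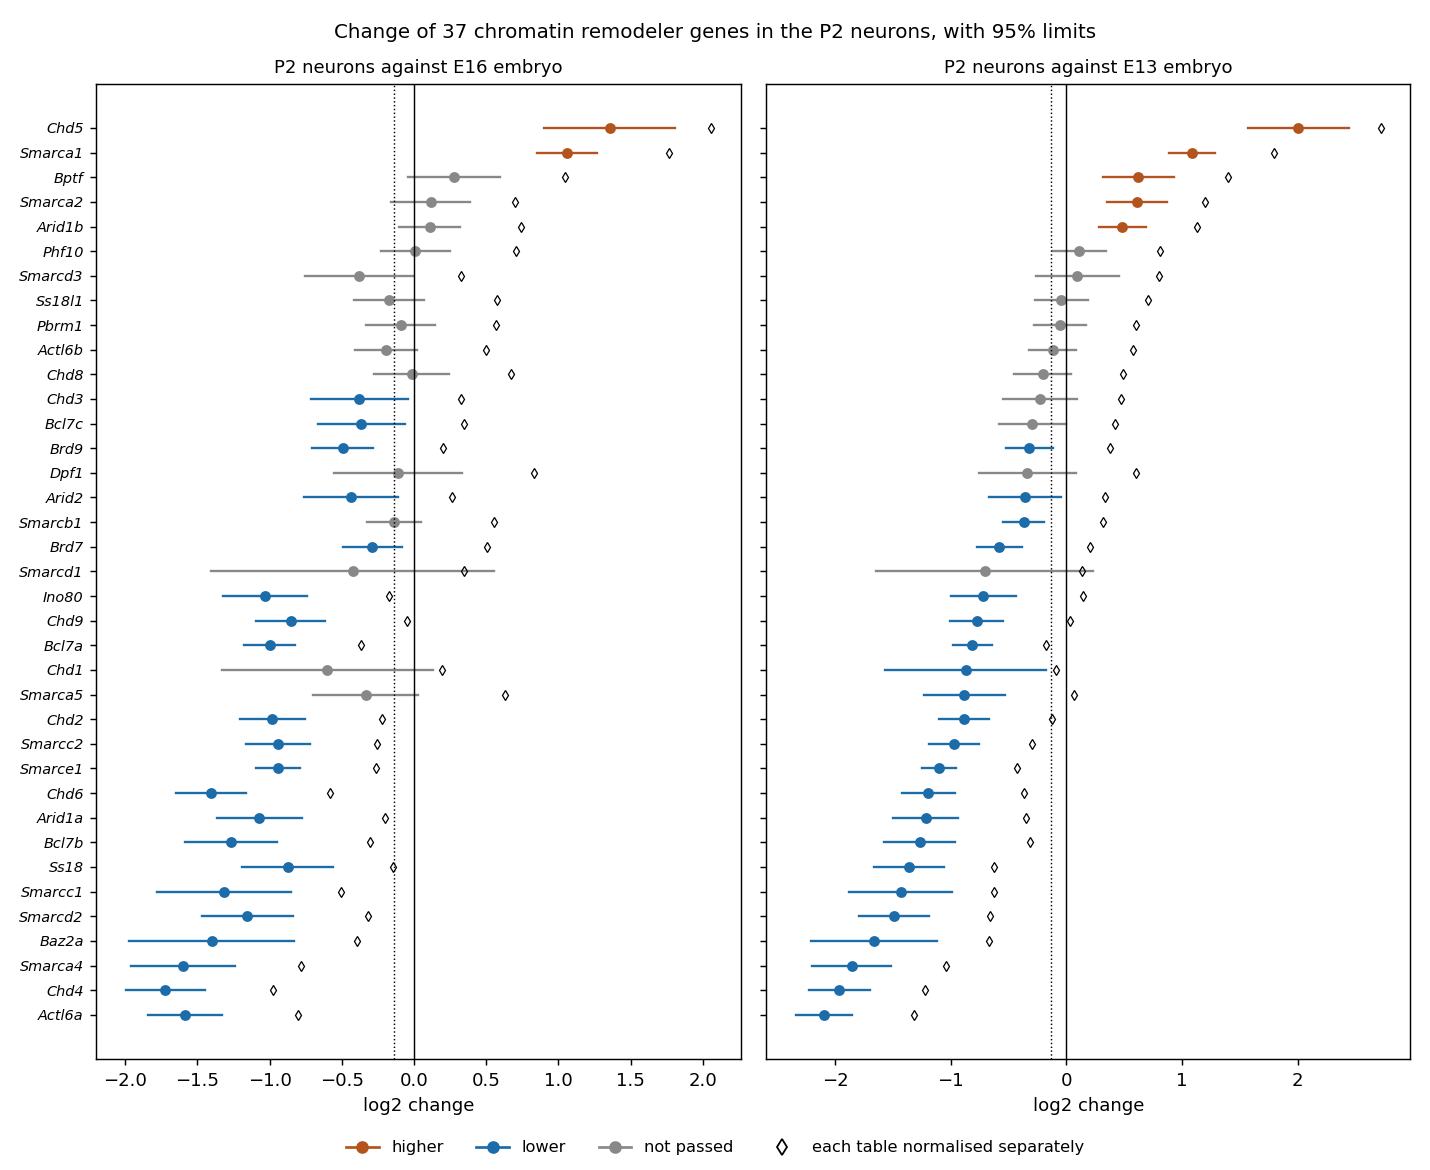
Log2 change of the 37 measured remodeler genes in P2 neurons against E16 embryo (left) and E13 embryo (right), with 95% limits from limma, coloured by call, and, as open diamonds, the change with each table normalised separately. The dotted line is the median of all 10663 genes, -0.14 and -0.13; against E13, Chd5 and Smarca1 lie farthest to the right and Actl6a, Chd4 and Smarca4 farthest to the left by both ways, while the diamonds of genes such as Brd7 and Brd9 lie on the other side of 0.

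The BAF ATPases moved apart. Smarca4, the main ATPase of progenitor BAF, had log2 signals of 8.42, 8.03, 8.48, 8.97 and 8.70 in the 5 P2 arrays, 10.39, 10.06, 10.001, 10.34 and 9.80 in E16 embryo, and 9.86, 10.48 and 10.62 (lowest, median and highest of 6) in E13 embryo. Every P2 array was below every embryo array. Smarca4 fell 3.03-fold against E16 (log2 change -1.60 ± 0.18 SE, adjusted p = 8e-09) and 3.63-fold against E13 (-1.86 ± 0.17, adjusted p = 1.7e-10). Smarca2, the alternative ATPase, had 12.77, 13.17, 12.82, 12.69 and 12.69 at P2, 12.18, 12.67, 12.88, 12.81 and 13 in E16 embryo and 12.01, 12.24 and 12.43 in E13 embryo. The P2 arrays lay above every E13 array and overlapped the E16 arrays. Smarca2 rose 1.53-fold against E13 (0.61 ± 0.13, adjusted p = 0.00012), and its change against E16 did not pass (0.12, 95% limits -0.16 to 0.39).

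The actin-like subunit differed between its forms. Actl6a, the progenitor form, had log2 signals of 8.81, 8.64, 9.28, 9.31 and 8.87 at P2, 10.67, 10.79, 10.56, 10.28 and 10.54 in E16 embryo and 10.91, 11.09 and 11.28 in E13 embryo. The groups stood in 3 steps without overlap. Actl6a fell 3-fold against E16 (-1.58 ± 0.12, adjusted p = 1.4e-11) and 4.28-fold against E13 (-2.10 ± 0.12, adjusted p = 1.5e-14), the largest fall of a member against E13. Actl6b, the neuronal form, had 11.69, 11.63, 11.36, 11.62 and 11.54 at P2, 11.74, 11.70, 11.83, 11.78 and 11.77 in E16 embryo and 11.46, 11.70 and 11.87 in E13 embryo. The P2 arrays overlapped the E13 arrays and lay just below the E16 arrays. The change did not pass against E16 (-0.19, limits -0.41 to 0.021) or E13 (-0.12, limits -0.33 to 0.087). With tables normalised separately it passed as higher, by 0.50 and 0.58, which was 0.16 and 0.095 below the median of all genes.

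The SS18 subunits differed in the same way. Ss18, of progenitor BAF, had 9.72, 10.16, 10.36, 9.81 and 9.62 at P2, 10.70, 10.85, 10.91, 10.66 and 10.91 in E16 embryo and 11.12, 11.25 and 11.53 in E13 embryo. These groups did not overlap either. Ss18 fell 1.83-fold against E16 (-0.87 ± 0.15, adjusted p = 1.5e-05), a call lost with tables normalised separately (-0.15, adjusted p = 0.38), and 2.57-fold against E13 (-1.36 ± 0.15). Ss18l1, the neuronal partner, had 9.95, 10.15, 9.67, 9.75 and 9.49 at P2, 10.09, 9.99, 10.01, 9.98 and 9.80 in E16 embryo and 9.73, 9.85 and 9.95 in E13 embryo. The P2 arrays overlapped both groups, and neither change passed (-0.17 against E16, limits -0.41 to 0.066, and -0.046 against E13, limits -0.28 to 0.18). Of the PHD finger subunits, Phf10, known from progenitor BAF, had 11.35, 11.39, 11.16, 10.87 and 10.93 at P2, with means of 11.13 ± 0.15 (SD, n = 5) in E16 embryo and 11.03 ± 0.21 (SD, n = 6) in E13 embryo. Dpf1, a neuronal form, had 7.50, 7.56, 7.19, 7.50 and 7.73 at P2, with means of 7.61 ± 0.32 (SD, n = 5) and 7.83 ± 0.28 (SD, n = 6). Both genes overlapped the embryo arrays and did not pass, with limits against E13 of -0.12 to 0.34 for Phf10 (0.11) and -0.76 to 0.085 for Dpf1 (-0.34). With tables normalised separately, Ss18l1, Phf10 and Dpf1 passed as higher in both comparisons, by 0.57 to 0.83, where the median of all genes was 0.66 and 0.67.

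**Figure D2:**
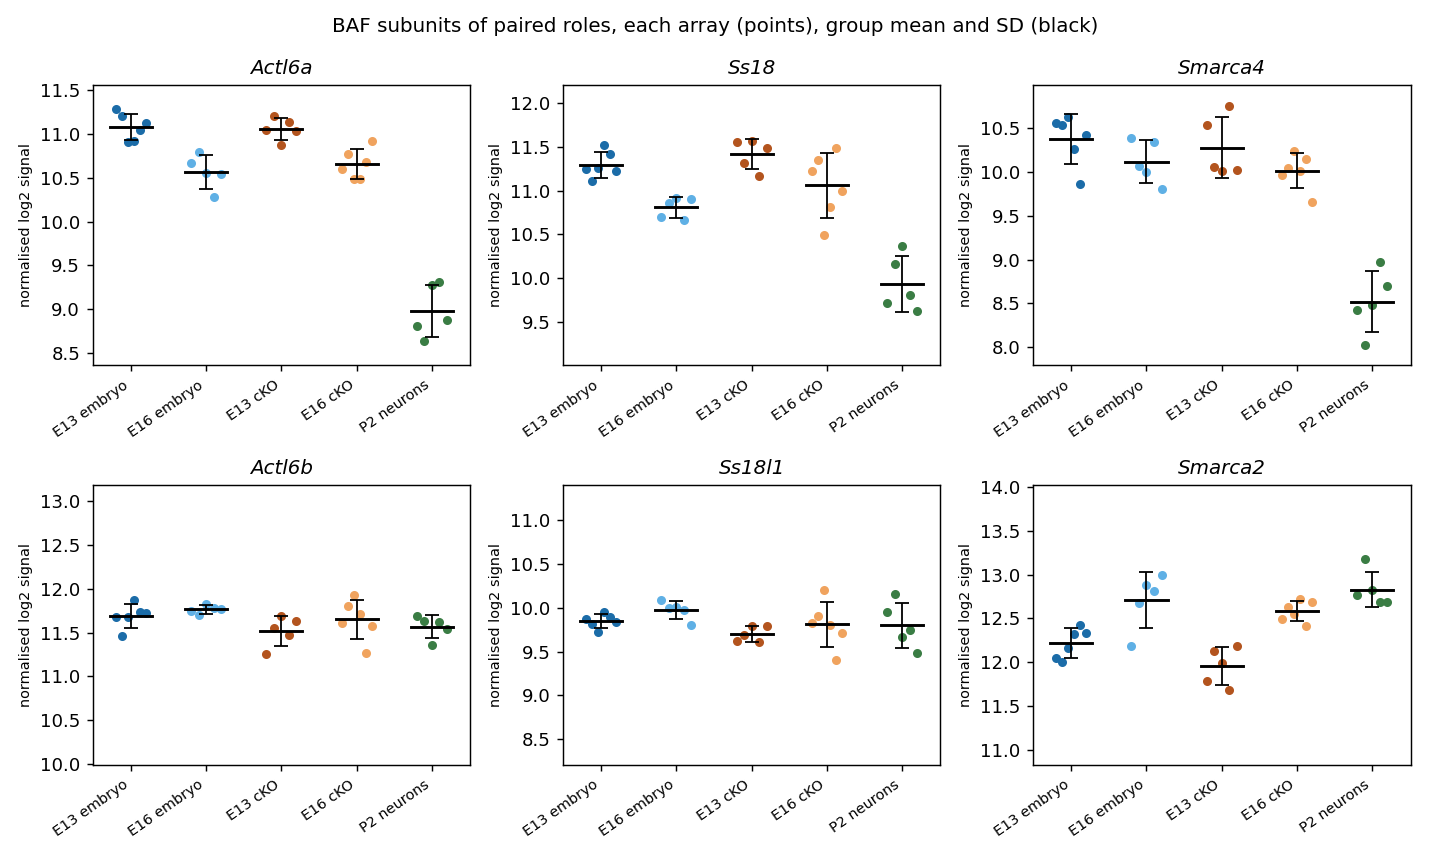
Normalised log2 signal (y axis) of 3 progenitor BAF subunits (top: Actl6a, Ss18, Smarca4) and their alternatives (bottom: Actl6b, Ss18l1, Smarca2) in the 5 groups (x axis); points are single arrays, black lines the group mean and SD. In the top panels all 5 P2 arrays lie below all embryonic arrays, while in the bottom panels the P2 arrays overlap or nearly touch the E16 embryo arrays.

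Core BAF subunits, present in progenitor and neuronal forms, mostly had lower signals at P2. Smarce1 (BAF57), an HMG-box subunit, had 11.43, 11.43, 11.45, 11.59 and 11.66 at P2, 12.30, 12.49, 12.53, 12.49 and 12.47 in E16 embryo and 12.42, 12.62 and 12.76 in E13 embryo. All P2 arrays were below all embryo arrays. Smarce1 fell 1.92-fold against E16 (-0.94 ± 0.075, adjusted p = 1.8e-11) and 2.15-fold against E13 (-1.10 ± 0.071). The scaffold subunits Smarcc1 (BAF155) and Smarcc2 (BAF170) both fell. Smarcc1 was at 8.54, 8.72, 8.42, 8.74 and 8.80 at P2, 9.70, 10.01, 10.11, 9.64 and 10.34 in E16 embryo and 9.51, 10.24 and 10.53 in E13 embryo (-1.32 ± 0.22 against E16, adjusted p = 9.8e-06). Smarcc2 was at 10.80, 10.80, 10.87, 11.01 and 11.09 at P2, 12.03, 11.91, 11.83, 11.88 and 11.61 in E16 embryo and 11.68, 11.91 and 12.05 in E13 embryo (-0.94 ± 0.11, adjusted p = 1.8e-08). The P2 arrays overlapped no embryo array for either gene, and the changes against E13 were -1.44 and -0.97. Smarcb1 (SNF5) was at 10.61, 10.62, 10.85, 10.72 and 10.82 at P2, 10.87, 10.79, 10.75, 11.25 and 10.64 in E16 embryo and 10.93, 11.10 and 11.24 in E13 embryo. It overlapped the E16 arrays and did not pass there (-0.14). Against E13 it fell by 0.37 (adjusted p = 0.00042), which turned to 0.32 with tables normalised separately.

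Of the alternative BAF60 subunits, Smarcd2 had 8.58, 8.87, 8.20, 8.13 and 8.24 at P2, 10.02, 9.48, 9.57, 9.41 and 9.29 in E16 embryo and 9.83, 9.87 and 10.01 in E13 embryo. Without overlap, it fell 2.22-fold against E16, a call lost with tables normalised separately (-0.32, adjusted p = 0.059), and 2.81-fold against E13. Smarcd3 had 10.24, 9.93, 10.43, 10.70 and 10.86 at P2. It overlapped both embryo groups and did not pass (-0.38 against E16 and 0.093 against E13). Smarcd1 was dim, above background in 2 of 5 P2 arrays, 1 of 5 E16 embryo arrays and 5 of 6 E13 embryo arrays, and did not pass. Among the DNA-binding ARID subunits, Arid1a had 8.10, 7.56, 8.08, 8.12 and 8.47 at P2, 9.16, 9.41, 9.18, 8.77 and 9.15 in E16 embryo and 9.06, 9.31 and 9.50 in E13 embryo. Again without overlap, it fell 2.1-fold against E16, a call lost with tables normalised separately (-0.20, adjusted p = 0.19), and 2.33-fold against E13. Arid1b, its alternative, had 12.18, 12.37, 12.30, 12.39 and 12.19 at P2, 12.20, 12.26, 12.39, 11.92 and 12.11 in E16 embryo and 11.66, 11.80 and 11.98 in E13 embryo. The P2 arrays were above all E13 arrays (0.48 ± 0.099, adjusted p = 9.2e-05) and overlapped the E16 arrays, where the change did not pass (0.11). The rise of Arid1b against E13 rested on the probe, as given below.

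PBAF differs from BAF in carrying Arid2, Pbrm1 and Brd7. Brd7, a bromodomain subunit, was at 9.25, 9.32, 9.25, 9.04 and 8.91 at P2, below all embryo arrays, and fell by 0.29 against E16 and 0.58 against E13, which turned to 0.50 and 0.20 with tables normalised separately. Arid2 fell by 0.44 and 0.36, which turned to 0.26 and 0.34. Brd9, of non-canonical BAF, fell by 0.49 and 0.32, which turned to 0.20 and 0.38. These 3 genes stayed below the all-gene median by both ways of normalising. Pbrm1 did not pass (-0.091 and -0.056). The 3 BCL7 subunits fell against E16. Bcl7a was at 12.12, 12.25, 12.04, 12.03 and 12.07 at P2, 13.16, 13.15, 13.03, 12.99 and 13.17 in E16 embryo and 12.67, 12.93 and 13.04 in E13 embryo, and fell by 0.999 and 0.81 without overlap. Bcl7b fell by 1.26 and 1.27, was above background in 4 of 5 P2 arrays, and did not pass with tables normalised separately (-0.31 in both). Bcl7c fell by 0.36 against E16, which turned to 0.35, and did not pass against E13 (-0.29).

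The CHD family held the largest rise among the members and the largest fall against E16. Chd4, a NuRD ATPase of progenitors, had log2 signals of 9.37, 9.43, 9.76, 9.99 and 9.98 at P2, 11.69, 11.37, 11.50, 11.57 and 11.02 in E16 embryo and 11.55, 11.65 and 11.93 in E13 embryo. Every P2 array was below every embryo array. Chd4 fell 3.3-fold against E16 (-1.72 ± 0.13, adjusted p = 1.2e-11) and 3.91-fold against E13 (-1.97 ± 0.13, adjusted p = 2.5e-13). Chd5, a NuRD ATPase found mainly in neurons, had 11.66, 11.83, 11.19, 11.16 and 11.20 at P2, 9.87, 9.85, 10.31, 10.13 and 10.11 in E16 embryo and 9.08, 9.46 and 9.64 in E13 embryo. The groups stood in 3 upward steps without overlap. Chd5 rose 2.56-fold against E16 (1.35 ± 0.22, adjusted p = 5.3e-06) and 4.02-fold against E13 (2.01 ± 0.21, adjusted p = 3.3e-09). Chd3, the remaining NuRD ATPase, had 10.62, 10.26, 10.64, 10.59 and 10.30 at P2. It overlapped both embryo groups, fell by 0.38 against E16 (adjusted p = 0.039), a call lost in 6 of the 10 fits that left out 1 array compared, turned to 0.33 with tables normalised separately, and did not pass against E13 (-0.23).

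Of the other CHD genes, Chd6 had 8.63, 8.69, 8.48, 8.48 and 8.10 at P2, 9.74, 9.91, 9.83, 9.90 and 10.02 in E16 embryo and 9.53, 9.69 and 9.84 in E13 embryo. It did not overlap and fell 2.65-fold against E16 (-1.41 ± 0.12, adjusted p = 4.3e-11) and 2.29-fold against E13. Chd2, a remodeler gene tied to epilepsy in people, was at 9.42, 9.67, 9.47, 9.16 and 9.25 at P2, below all embryo arrays, and fell by 0.98 and 0.88. Chd9 fell by 0.85 and 0.78, from 9.62 ± 0.21 (SD, n = 5) in E16 embryo and 9.54 ± 0.096 (SD, n = 6) in E13 embryo to 8.77 ± 0.24 (SD, n = 5). With tables normalised separately neither passed (Chd2 -0.22 and -0.12, Chd9 -0.046 and 0.033). Chd1, which reads methylated histone H3, ranged from 8.77 to 10.89 in E16 embryo, from 9.61 to 10.17 in E13 embryo and from 8.95 to 9.20 at P2. It fell by 0.87 against E13 without overlap (adjusted p = 0.023), a call lost with tables normalised separately (-0.089, adjusted p = 0.82), and did not pass against E16 (-0.60). Chd8, a remodeler gene mutated in autism, had 10.90, 10.82, 10.50, 10.98 and 10.71 at P2 and did not pass (-0.016, limits -0.27 to 0.24, and -0.20, limits -0.45 to 0.044).

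The ISWI ATPases also moved apart. Smarca1, the form known from neurons in mouse, had 11.18, 11.30, 11.002, 11.04 and 11.04 at P2, 9.83, 10.19, 10.30, 9.78 and 10.16 in E16 embryo and 9.92, 10.03 and 10.13 in E13 embryo. All P2 arrays were above all embryo arrays, which overlapped each other. Smarca1 rose 2.08-fold against E16 (1.06 ± 0.10, adjusted p = 5.6e-10) and 2.12-fold against E13 (1.09 ± 0.096, adjusted p = 1.1e-10). Smarca5, known from proliferating progenitors, had 6.98, 6.87, 7.19, 7.56 and 7.37 at P2, 7.36, 8.03, 7.68, 7.09 and 7.49 in E16 embryo and 7.67, 7.996 and 8.57 in E13 embryo. It fell by 0.88 against E13 without overlap (adjusted p = 4.1e-05), which turned to 0.069 with tables normalised separately, and did not pass against E16, where the arrays overlapped (-0.33). Bptf, of the NURF complex, was at 9.80, 9.50, 9.37, 9.90 and 9.74 at P2 and 8.85, 8.93 and 9.36 in E13 embryo, without overlap, and rose by 0.62 (adjusted p = 5e-04), though only by its brightest probe. Baz2a (TIP5), of the complex that silences ribosomal genes, was at 6.51, 5.99, 6.31, 6.85 and 6.28 at P2 and fell by 1.40 against E16, a call lost with tables normalised separately (-0.40, adjusted p = 0.2), and by 1.66 against E13. Ino80, the ATPase of the INO80 complex, was above background in 1 of 5 P2 arrays, 5 of 5 E16 embryo arrays and 5 of 6 E13 embryo arrays. It fell by 1.03 and 0.72, which became -0.17 (adjusted p = 0.3) and 0.14 with tables normalised separately.

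**Figure D3:**
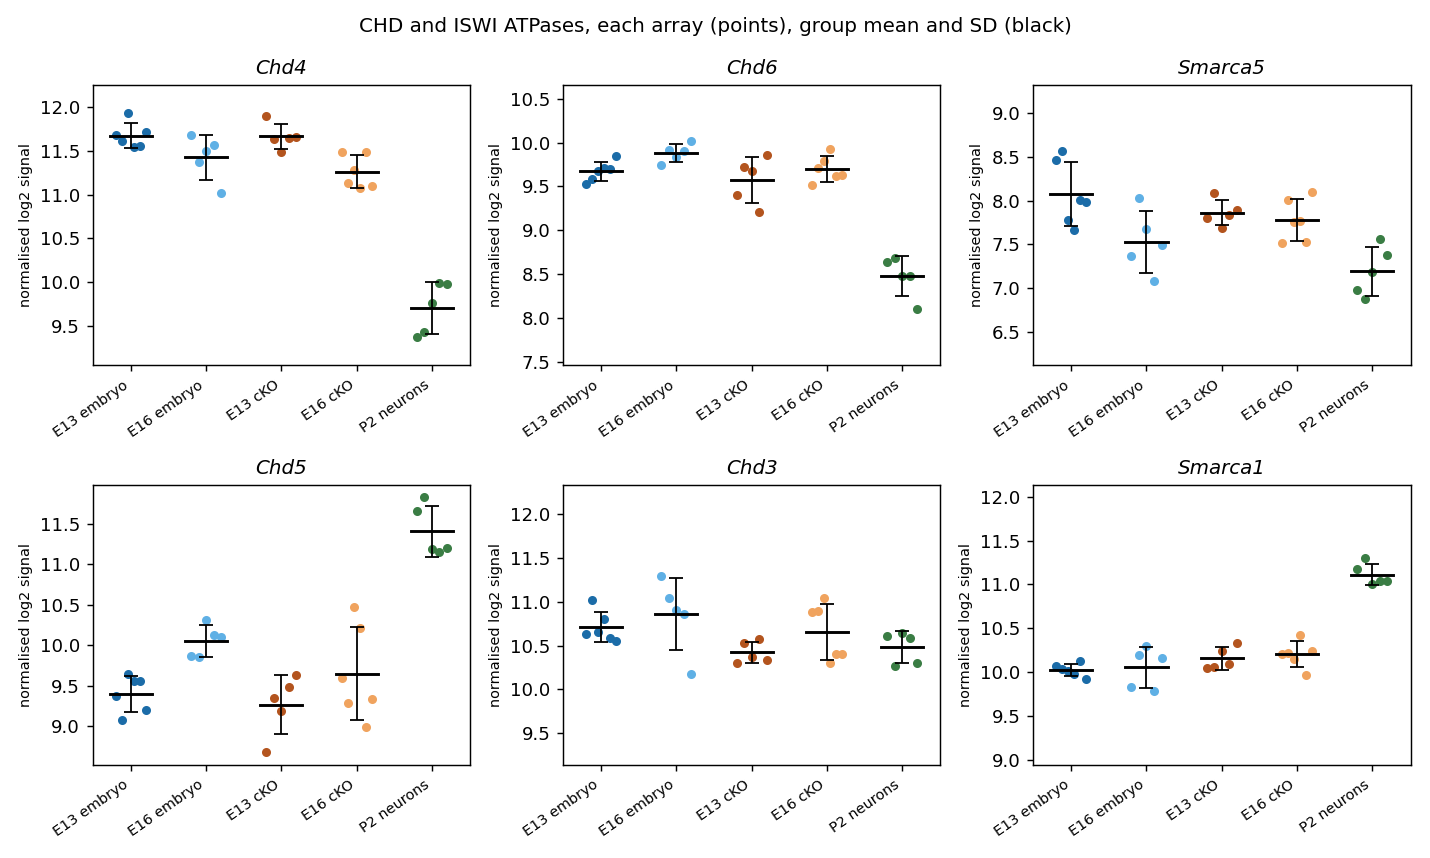
Normalised log2 signal (y axis) of Chd4, Chd6 and Smarca5 (top) and Chd5, Chd3 and Smarca1 (bottom) in the 5 groups (x axis); points are single arrays, black lines the group mean and SD. All P2 arrays lie below all embryo arrays for Chd4 and Chd6 and above them for Chd5 and Smarca1, with P2 means of 11.41 for Chd5 and 11.11 for Smarca1.

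To set alternative subunits against each other so that a shift of a whole array cancels, the difference between the log2 signals of the paired genes was taken within each array. The size of such a difference has no meaning of its own, since the probes differ, and its change between groups was tested by an exact two-sided permutation test over arrays, with p adjusted over 48 tests (8 pairs in 6 comparisons). Of these, 19 passed. No share over other pairs of genes was taken beside these counts. By limma, 73.9% of all genes passed at P2 against E13 and 72% against E16, so the counts are no result about the pairs as a group. Against E13 embryo, 6 of 8 pairs shifted toward the form known from neurons, or toward Smarca2 or Chd3, in P2 arrays without overlap. Each had p = 0.0022, the smallest that 5 against 6 arrays allow, and adjusted p = 0.012 (exact). The shift was 3.97 for Chd5 minus Chd4, 2.47 for Smarca2 minus Smarca4, 1.98 for Actl6b minus Actl6a, 1.97 for Smarca1 minus Smarca5, 1.74 for Chd3 minus Chd4 and 1.32 for Ss18l1 minus Ss18. Smarcc2 minus Smarcc1 (0.46, adjusted p = 0.076, exact) and Dpf1 minus Phf10 (-0.45, adjusted p = 0.17, exact) did not pass. Chd5 minus Chd4 was between 1.16 and 2.39 in the P2 arrays, between -1.82 and -0.91 in E16 embryo and between -2.53 and -1.99 in E13 embryo. Actl6b minus Actl6a was between 2.08 and 2.99 at P2, between 0.90 and 1.503 in E16 embryo and between 0.25 and 0.95 in E13 embryo, where the embryo groups overlapped each other. Against E16 embryo 5 pairs passed, with p = 0.0079 each, the smallest that 5 against 5 allow, and adjusted p = 0.022 (exact). These were the pairs above except Ss18l1 minus Ss18, which changed by 0.70 (adjusted p = 0.057, exact). Both pairs with Chd4 share its values, and 20 of the 48 tests passed with tables normalised separately.

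**Figure D4:**
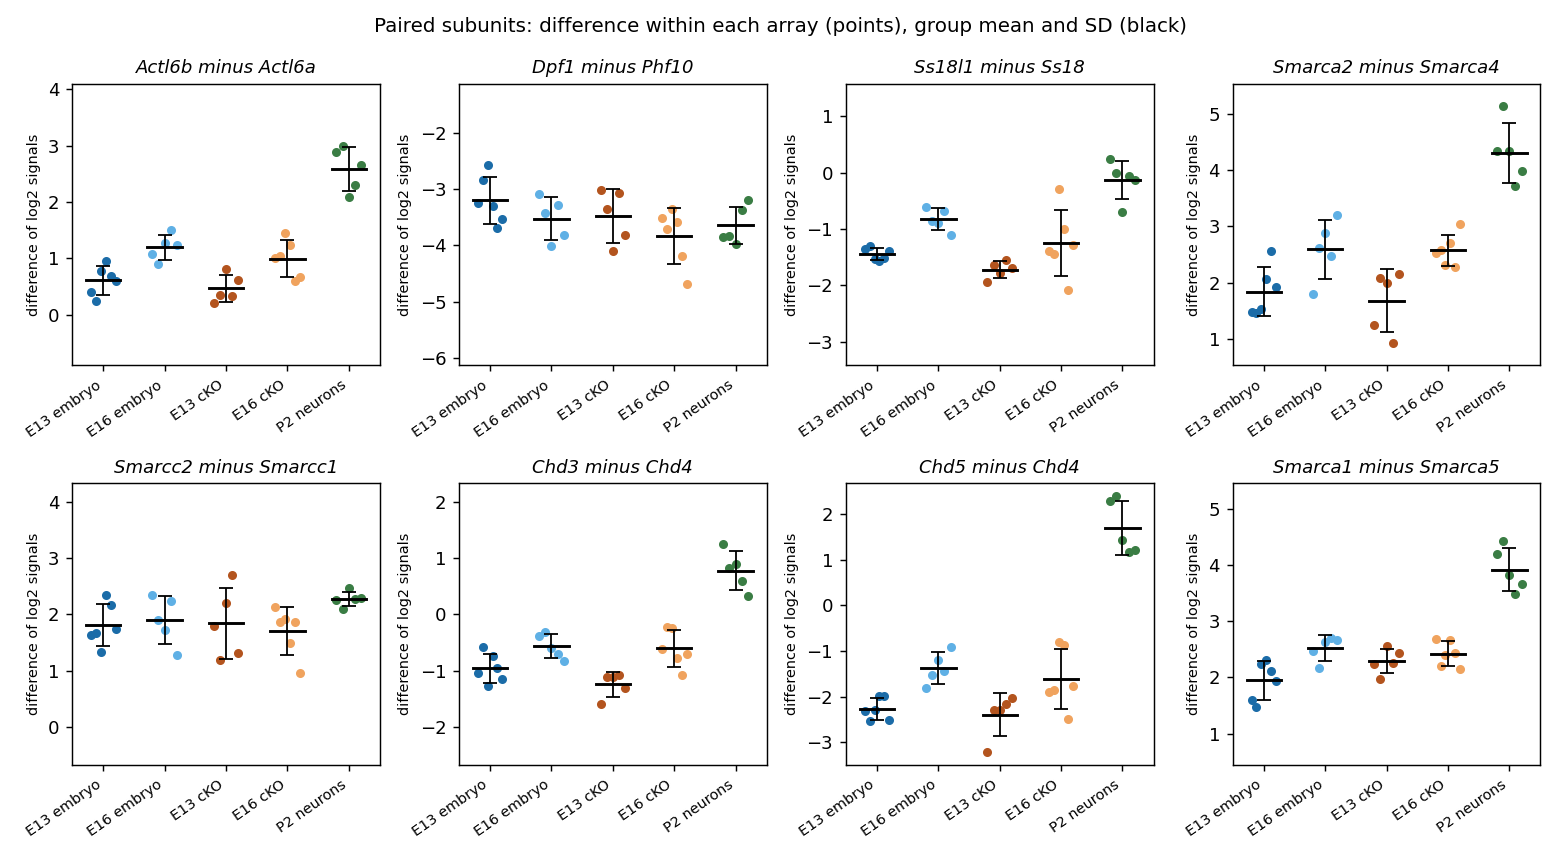
Difference between the log2 signals of paired subunits within each array (y axis) in the 5 groups (x axis); points are single arrays, black lines the group mean and SD. P2 arrays lie above all embryo arrays for 5 pairs, such as Chd5 minus Chd4 (1.16 to 2.39), and overlap some embryo arrays for Ss18l1 minus Ss18, Dpf1 minus Phf10 and Smarcc2 minus Smarcc1.

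Stage changes from E13 to E16 were measured separately in embryo and in cKO arrays, which share no array. In both, the BAF genes Smarca2, Smarcd3 and Arid1b rose and Actl6a fell. In embryo arrays, 4 of 37 genes rose, 4 fell and 29 did not pass (21.6%, at a background of 23.8%). The median change was 0.028 for the members and -0.0061 for all genes. In cKO arrays 4 rose, 4 fell and 29 did not pass (21.6%, at a background of 26%), with medians of 0.074 and -0.0081. These shares are near the background and are no result about the members as a group. If arrays were only brought to 1 common median, 3 genes passed in embryo arrays (1 higher, 2 lower, at a background of 15.5%) and 5 in cKO arrays (1 higher, 4 lower, at 17.9%). All 6 measured cell cycle genes fell between E13 and E16 in embryo and in cKO. In embryo, 3 of 4 intermediate progenitor genes also fell and both measured erythroid genes rose, and in cKO all 3 choroid plexus genes and 1 of 4 intermediate progenitor genes fell. The part of these cells in the stage changes was not tested.

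In embryo, Chd5 rose by 0.65 ± 0.21 (adjusted p = 0.025), with every E16 array above the highest E13 array at 9.64. Smarca2 rose by 0.49 ± 0.13 (adjusted p = 0.0052), Arid1b by 0.37 ± 0.099 (adjusted p = 0.0063) and Smarcd3 by 0.47 ± 0.17 (adjusted p = 0.049), each with overlapping arrays. Smarcd3 was at 11.08, 10.78, 10.66, 11.10 and 10.43 at E16 and 10.08, 10.35 and 10.62 at E13. Without overlap, Actl6a fell by 0.51 ± 0.12 (adjusted p = 0.002), Ss18 by 0.49 ± 0.15 (adjusted p = 0.016) and Brd7 by 0.29 ± 0.095 (adjusted p = 0.025). Brd7 was at 9.36, 9.38, 9.43, 9.50 and 9.53 at E16 and 9.68, 9.72 and 9.81 at E13. Smarca5 fell by 0.55 ± 0.17 (adjusted p = 0.018) with overlapping arrays. Smarca2, Smarcd3, Arid1b, Ss18 and Brd7 did not pass in embryo with the common median. Smarcd3 kept its call in only 2 of the 11 fits that left out 1 embryo array, and in 9 of all 27 that left out any array. Smarca5 lost its call in 3 of the 11, and Chd5 and Brd7 in 2 each.

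In cKO arrays, Smarca2 rose by 0.63 ± 0.13 (adjusted p = 0.00051) without overlap, from 11.79, 12.13, 11.99, 11.68 and 12.19 at E13 to 12.42, 12.59 and 12.73 (lowest, median and highest of 6) at E16. Bcl7a rose by 0.44 ± 0.081 (adjusted p = 0.00022) without overlap, from 12.72, 12.68, 12.77, 12.45 and 12.57 to 12.89, 13.09 and 13.26. With overlap, Smarcd3 rose by 0.47 (adjusted p = 0.048) and Arid1b by 0.32 (adjusted p = 0.019). Smarcd2 fell by 0.65 ± 0.15 (adjusted p = 0.0015), with 10.40, 9.76, 10.13, 10.38 and 10.41 at E13 and 9.29, 9.60 and 9.92 at E16, where E13 array 2 lay inside the E16 range. Actl6a fell by 0.40 ± 0.12 (adjusted p = 0.013), from 11.05, 11.20, 10.88, 11.13 and 11.03 to 10.48, 10.64 and 10.92, with slight overlap. Chd4 fell by 0.40 ± 0.13 (adjusted p = 0.02) and Smarce1 by 0.19 ± 0.071 (adjusted p = 0.048), the latter without overlap. With the common median, Smarcd3, Arid1b and Bcl7a did not pass in cKO, and without the 2 cKO arrays deepest in the embryo range, Smarcd3, Smarce1 and Actl6a did not. Without all 4 cKO arrays in that range Chd4 did not pass either. Of the 11 fits that left out 1 cKO array, Smarce1 lost its call in 10 and Smarcd3 in 7.

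Of the 8 genes that passed in embryo and the 8 in cKO, 4 were shared, 50% of each list, and all 4 had the same direction. Over the 37 genes, the stage changes in embryo and cKO correlated with r = 0.77 and rho = 0.80, and genes are not independent replicates. No overlap or correlation over all genes was taken beside these values, so they are no result about the members as a group. The interaction of stage and genotype passed in 0 of 37 genes by limma, at a background of 0.0188%. Of the members 1, Bcl7a, had an unadjusted limma p under 0.05, against 381 of all 10663 genes. No gene was therefore shown to change with stage differently in cKO and embryo. Of the pairs, Ss18l1 minus Ss18 (0.62), Chd5 minus Chd4 (0.90), Actl6b minus Actl6a (0.59) and Smarca1 minus Smarca5 (0.58) shifted upward between E13 and E16 embryo (adjusted p of 0.012, 0.012, 0.022 and 0.04, exact). Smarca2 minus Smarca4 (0.89), Chd3 minus Chd4 (0.64) and Actl6b minus Actl6a (0.53) did so in cKO (adjusted p of 0.012, 0.021 and 0.049, exact). Smarca1 minus Smarca5 in embryo lost its call in 8 of the 11 fits that left out 1 array compared, and Actl6b minus Actl6a in cKO in 9 of 11. The latter also did not pass with the common median (adjusted p = 0.052, exact) or without the 2 cKO arrays (0.41, adjusted p = 0.14, exact). Without all 4 cKO arrays, which leaves 4 against 3, none of the 3 cKO shifts passed. So few arrays allow few arrangements, which keeps the smallest exact p high, so this setting cannot decide whether the shifts hold. All 3 stayed upward, at 1.25 for Smarca2 minus Smarca4, 0.47 for Chd3 minus Chd4 and 0.42 for Actl6b minus Actl6a. With the mean of all kept probes of a gene, the stage shift of Actl6b minus Actl6a did not pass in embryo (0.09, adjusted p = 0.65, exact) or cKO (0.27, adjusted p = 0.22, exact).

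**Figure D5:**
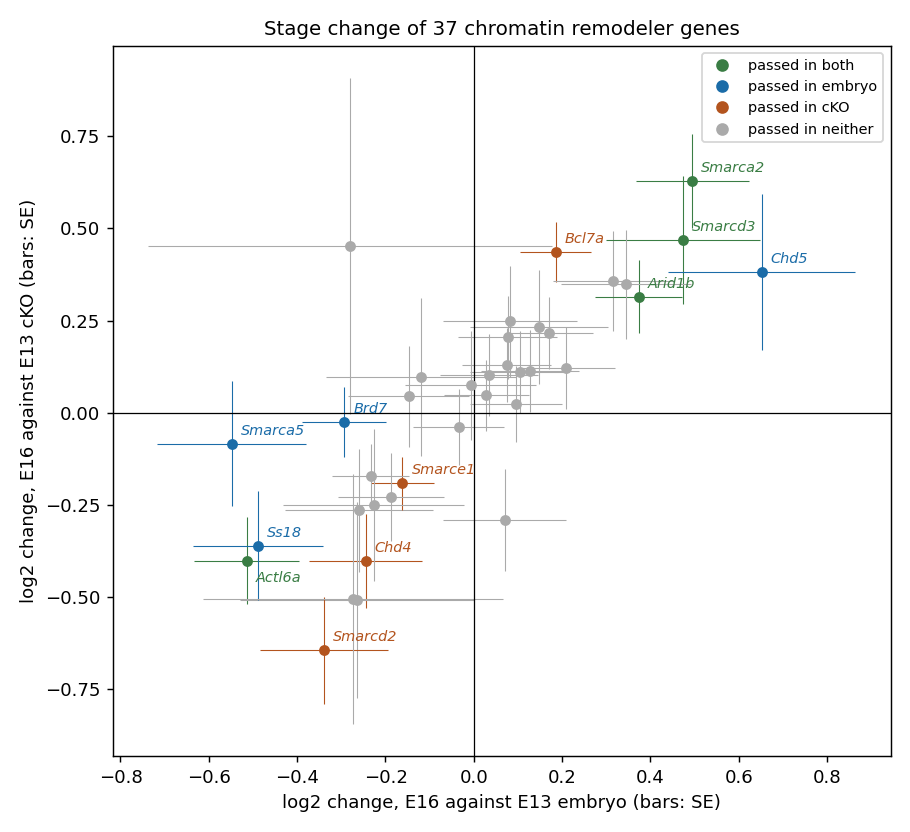
Log2 change from E13 to E16 of the 37 measured genes in embryo arrays (x axis) and in cKO arrays (y axis), with SE bars and colours for the comparison in which a gene passed. Smarca2, Smarcd3 and Arid1b, in the upper right, and Actl6a, in the lower left, passed in both, and r was 0.77 over the 37 genes.

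Tbr2 cKO and embryo arrays were compared at each stage for a difference in remodelers with the knockout. At E13, 0 of 37 genes passed by limma, at a background of 1.45%. An unadjusted limma p under 0.05 was found for 3 of them and for 1052 of all 10663 genes. At E16, 0 passed, at a background of 0.488%, and 2 had an unadjusted limma p under 0.05, against 749 of all genes. These counts are no result about the members as a group. The cKO and embryo arrays came in separate tables, so table and genotype cannot be told apart, and Eomes was not lower in cKO. Choroid plexus genes (3 measured) summed to 266 to 6500 in E13 cKO against 179 to 541 in E13 embryo. Interneuron genes (4 measured) summed to 228 to 3120 against 185 to 486. None of these genes passed by limma between genotypes at E13. Of 4 measured intermediate progenitor genes 1 passed as higher in E13 cKO, and of 10 postmitotic neuron genes 1 passed as lower. At E16 no gene of these lists passed. The part of such cells was not tested. The lowest p-values at E13 were those of Bcl7a and Smarcd3, and the lowest at E16 that of Smarcd3, the BAF60c subunit known from heart and muscle development. Smarcd3 was at 9.55, 10.07, 9.54, 10.05 and 9.51 in E13 cKO against 10.08, 10.35 and 10.62 in E13 embryo, without overlap, a difference of -0.59 ± 0.17 (adjusted p = 0.10). At E16 it was at 9.89, 10.16 and 10.83 in cKO against 11.08, 10.78, 10.66, 11.10 and 10.43 in embryo, with overlap, and the difference was -0.60 ± 0.17 (adjusted p = 0.14). Without the 2 cKO arrays deepest in the embryo range it passed at both stages (-0.67, adjusted p = 0.015, and -0.72, adjusted p = 0.01), a setting that favours such a difference, since it drops cKO arrays like embryo. Without all 4 cKO arrays in that range it passed at E16 (-0.68, adjusted p = 0.04) and not at E13 (-0.62, adjusted p = 0.072). It passed without E16 cKO array 3 alone at both stages (adjusted p = 0.05 at E13, just under the threshold before rounding, and 0.015 at E16), and at E13 also without E13 cKO array 2 alone (adjusted p = 0.037) and with tables normalised separately (-0.68, adjusted p = 0.039). Bcl7a differed by -0.28 ± 0.081 at E13 (adjusted p = 0.10) and by -0.026 at E16. At E13 it passed with tables normalised separately (-0.35, adjusted p = 0.023), and without E13 embryo array 1 (-0.32, adjusted p = 0.031). Among the pairs, Ss18l1 minus Ss18 was lower in E13 cKO than in E13 embryo, with a change of -0.27 (p = 0.0065, adjusted p = 0.022, exact), with arrays between -1.94 and -1.55 against -1.58 and -1.31, which overlapped at 1 array on each side. It did not pass without all 4 cKO arrays in the embryo range (-0.31, adjusted p = 0.063, exact). No other pair passed between genotypes.

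Several genes had more than 1 probe, and the probe of highest mean signal stood for the gene above. Of the 37 genes, 22 had 2 to 5 kept probes. Over all 78 probes, 9 were higher and 46 lower at P2 against E16 (background 69.3% of 20498 probes in either direction), and 12 and 45 against E13 (71.5%). All 4 probes of Chd5 rose at P2, by 1.35, 1.09, 2.02 and 1.64 against E16 and by 2.01, 1.70, 3.06 and 2.23 against E13. All 4 probes of Chd4 fell against E16, 3 of them by 1.72, 1.29 and 1.12, while the last was above background in no P2 array. Both probes of Actl6a fell at P2, by 1.58 and 1.05 against E16 and by 2.10 and 0.90 against E13, but its second probe did not pass between E13 and E16 embryo (0.15, where the first fell by 0.51). Both probes of Smarcc1, Smarce1 and Ss18 fell at P2. The level of Actl6b depended on the probe. Its 4 probes changed by -0.19, -0.29, -0.51 and -0.067 against E16, of which those in the middle fell, and by -0.12, -0.26, -0.73 and -0.33 against E13, of which all but the first fell. The 4 probes of Smarca2 changed by 0.12, -0.79, 0.14 and -0.50 against E16, of which the second and the last fell. Probes passed in opposite directions for Bcl7c and Pbrm1 against E16 and for Arid1b, Bptf and Pbrm1 against E13. Pbrm1 had 2 probes that rose by 0.84 and 0.88 against E16 and 1 that fell and was above background in no P2 array. The other probe of Arid1b fell by 0.57 against E13 where the first rose by 0.48. For Bptf, the 2 dimmer probes were above background in no P2 array, and 1 of them in no E13 embryo array either. Between stages, 8 probes were higher and 7 lower in embryo (background 20.4%) and 6 and 4 in cKO (21.5%), with no gene called in both directions.

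Partners of the members were read from lists by complex, beside the all-gene background of 41.6% lower and 30.4% higher against E16. Of 9 measured other NuRD subunits, 1 rose and 6 fell against E16 and 2 rose and 7 fell against E13, with median changes of -0.60 and -0.63. Mbd2, which binds methylated DNA, fell by 2.36 against E16, and Mta3 and Mta1, of the NuRD scaffold, by 1.58 and 1.57, whereas the histone chaperone gene Rbbp7 rose by 0.98. Of 19 measured other subunits of the INO80, SRCAP and Tip60 complexes, 3 rose and 11 fell against E16 and 2 rose and 11 fell against E13. Vps72, a chaperone of histone H2A.Z, fell by 2.39 against E16. Of 5 other ISWI partners 0 rose and 3 fell against E16, among them Baz2b by 3.37 (above background in 2 of 5 P2 arrays), and of 5 other BAF partners 0 rose and 2 fell, among them the transcription factor gene Bcl11b by 1.303. Of 7 other SNF2-like ATPases 1 rose and 6 fell. Atrx, a remodeler of silent chromatin, rose by 1.73. It was above background in 1 array of each embryonic group and in all 5 P2 arrays. Atrx thus passed the filter on dim signals only through the P2 arrays, and its rise is no support for a change. Rad54l, of recombination repair, fell to near background, above it in 3 of 5 P2 arrays. Of 4 genes of RE1 silencing, which holds neuronal genes off outside neurons, 3 were measured and all 3 fell against E16, Rcor2 by 2.58, Sin3a by 1.79 and Rcor1 by 0.44. Between E13 and E16 embryo 0 of these 3 passed by limma. Directions in these lists are from joint normalisation of all arrays.

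Arrays of a group differed in the members about as much as in other genes. The median within-group SD was 0.21 log2 units for the members and 0.23 for all genes. The SD was lowest for Smarce1 (0.092), Bcl7a (0.12) and Smarcb1 (0.13) and highest for Smarcd1 (0.81), which was near background, Chd1 (0.60) and Baz2a (0.47). Arrays 1 and 2 held the highest values of both Chd1 and Baz2a in the E16 embryo group, and arrays 1 and 2 did so in the E16 cKO group. In each group these arrays also carry the lowest numbers in the names of the signal columns. What those numbers stand for is not known here, and a batch was not tested.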

How the data were processed

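The members and all lists were chosen with earlier results of these data known. Intensity values and detection p-values of 45281 probes came from 3 non-normalised tables that the authors deposited, 1 for embryo, 1 for cKO and 1 for P2 arrays, so table and group cannot be told apart. The smallest intensity was -50.8. The authors' deposited series matrix holds log2 values of 12377 probes and served as an alternative. The sources used here name no genome build, scanner software or slide. Signal columns name a group and carry a number of their own, which could not be matched to single samples. Arrays are therefore numbered within a group.

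All arrays were corrected with normexp (limma 3.58.1 in R 4.3.3, offset 16), quantile normalised together and taken to log2. The filter on detection (p below 0.01 in 5 or more arrays) left 20498 probes, and the kept probe of highest mean stood for a gene. Samples were grouped by title. The 7 comparisons were fitted in 1 limma model over all arrays, with Benjamini-Hochberg adjustment over 10663 genes and a threshold of 0.05, and the procedure was tested on simulated data. Pairs were tested by exact permutation. Genes were named from the probe table, and all measured members are described. Alternatives changed the background correction, normalisation, probe filter, probe choice, variance model and arrays used. Per array, 36.9% to 42.9% of probes were above background.

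The samples were treated as unpaired. Deviations of same-numbered arrays in the series matrix correlated at -0.20 to 0.43 and not all above 0.1. For cKO against embryo, 3 of 5 pairs were above 0.1 at E13 (-0.20 to 0.41) and 3 of 5 at E16 (0.049 to 0.43). In the other comparisons 0 to 2 of 5 were. These values do not settle whether samples were paired, or shared a batch, across genotypes.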

Additional observations from a re-analysis of the deposited data

Results flagged for a closer look

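In 7 of 185 sets of arrays (1 gene in 1 group), a single array stood apart from the others of its group by Dixon's test, and chance alone marks about 1 in 20 sets. Smarca2 was at 13.17 in P2 array 2, where the next highest P2 array was at 12.82. Smarcd1, which was near background, was at 7.70 in E16 embryo array 5, with the next at 5.42, and at 6.85 in E13 cKO array 1, with the next at 5.99. Smarce1 was at 12.30 in E16 embryo array 1, with the next lowest at 12.47. Bcl7c was at 10.03 in E13 embryo array 2, with the next lowest at 10.60. Ino80 was at 5.64 in P2 array 4, with the next highest at 5.21. Bptf was at 8.74 in E16 cKO array 1, with the next lowest at 9.40. All are normalised log2 signals.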

How the results depend on the processing

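Counts of genes that passed moved as follows. With arrays at 1 common median, the stage comparison counted 3 genes in embryo and 5 in cKO, and with only the groups compared 5 in cKO. For cKO against embryo at E13, 2 genes passed with tables normalised separately, 1 with an intensity trend and robust moderation, and 1 without the 2 cKO arrays deepest in the embryo range. At E16, 1 passed without those 2 and 1 without all 4 cKO arrays in that range, an alternative chosen after seeing the data. Leaving out 1 array at a time gave 6 to 8 genes for stage in embryo, 5 to 9 for stage in cKO, 0 to 1 for genotype at each stage, 0 to 0 for the interaction, 21 to 25 for P2 against E16, 26 to 28 for P2 against E13, and 16 to 21 of the 48 pair tests.

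With tables normalised separately, the sign turned against E16 for Arid2 (0.26), Bcl7c (0.35), Brd7 (0.50), Brd9 (0.20) and Chd3 (0.33), and against E13 for Smarca5 (0.069), Smarcb1 (0.32), Arid2 (0.34), Brd7 (0.20), Brd9 (0.38), Chd9 (0.033) and Ino80 (0.14). The same setting keeps differences in brightness between tables, and with it the P2 median change of all genes moved to 0.66 and 0.67. Before any correction, the median signal of an array was 17.6 to 42.3 at P2 and 10 to 15.2 in embryo. The cause of this difference was not tested. With the mean of all kept probes, Arid1b (-0.042) and Bptf (-0.28) turned against E13, as their probes differ in sign.

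For the 66 gene calls, 703 fits left out 1 array of the groups compared, of which 655 kept the call and 48 lost it. For the 19 pair calls, 184 of 204 kept it and 20 lost it. None of these turned in sign. Actl6a did not pass between stages with the mean of its probes (-0.18 in embryo, -0.20 in cKO). The replicate number as a block could be fitted only on the series matrix, chosen after seeing the data. With this replicate block 6 and 6 of 34 genes passed for stage in embryo and cKO, 0 for genotype at each stage, 0 for the interaction, 22 for P2 against E16 and 25 for P2 against E13. The slide as a block was not run, since no slide is given. The cause of these changes was not tested except where stated.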
